A study of Mus musculus with 2 samples.

Results

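The 7 genes described here write, copy and remove methyl groups on cytosine in DNA: Dnmt1, Uhrf1, Dnmt3a, Dnmt3b, Tet1, Tet2 and Tet3. They were chosen by name for this function, and all 7 were found by Ensembl identifier among the 31053 genes of the deposited tables. RNA was counted in single cells of C57BL/6 mice that had received Hepa1-6 cells, a mouse hepatoma line, into the liver at 6 to 8 weeks of age. LSK cells, the sort gate for blood stem cells and early progenitors (Sca1 and c-Kit on the surface, few or no lineage markers), were taken from the bone marrow in 1 library and from the spleen in 1 library. Every cell came from a tumour-bearing animal, so the comparison is spleen against bone marrow under tumour. How many mice were pooled is not given in the sources used here, and tissue, sort and library preparation cannot be told apart. With 1 library per tissue no test was possible: values are described by size, and every interval is a 95% interval for counting error only.

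DNA methylation sits mostly on the cytosine of CpG pairs. After replication the new strand is bare, and Uhrf1, which binds hemimethylated CpG, recruits the maintenance enzyme Dnmt1 to copy the mark. Dnmt3a and Dnmt3b set methylation de novo. The enzymes Tet1, Tet2 and Tet3 oxidise the methyl group, after which it is lost by base excision repair or by dilution at replication. In blood, loss-of-function mutations of DNMT3A and TET2 are known from clonal expansion of stem cells, and Dnmt1 is needed for stem cells to keep themselves.

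On the mm10 build (GENCODE M21 annotation), Dnmt1 lies on the minus strand of chromosome 9 (20907209 to 20959888) and Uhrf1 on the plus strand of chromosome 17 (56303321 to 56323486). Dnmt3a is at chromosome 12, 3806007 to 3914443 (plus), and Dnmt3b at chromosome 2, 153649450 to 153687730 (plus). Tet1 is at chromosome 10, 62804570 to 62908996 (minus), Tet2 at chromosome 3, 133463679 to 133545139 (minus), and Tet3 at chromosome 6, 83362373 to 83459084 (minus). Antisense genes overlap Dnmt3a, Dnmt3b and Tet2. They held at most 0.723% of the UMIs (unique molecular identifiers, 1 per counted RNA molecule) of the gene they overlap, in Dnmt3a in the bone marrow.

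Dnmt1 and Uhrf1 followed the S phase genes across the clusters below, and their promoter windows are shown for that reason. RefSeq (GRCm38.p6, the mm10 assembly) gives 12 windows of 300 bases for the 7 genes, each from 250 bases before a transcription start to 50 after it. The 4 letter strings TTTCCCGC, TTTCGCGC, TTTGCCGC and TTTGGCGC, which spell the usual binding motif of E2F factors, regulators of S phase genes, were searched on both strands. Of the 12 windows 2 held a match, 1 of Dnmt1 and 1 of Uhrf1, and among all 32851 windows of this length 2.27% did. Among S phase genes of the list used here, 8 of the 19 in the table had a window with a match, against 2.61% of all genes. Both windows read 5′ to 3′ on the strand of the gene, with matches in capitals. The matching Dnmt1 window is chr9:20952574-20952873 (minus strand) and the matching Uhrf1 window chr17:56304063-56304362 (plus strand). The other windows of both genes held no match, and which start these cells use was not measured.
Dnmt1: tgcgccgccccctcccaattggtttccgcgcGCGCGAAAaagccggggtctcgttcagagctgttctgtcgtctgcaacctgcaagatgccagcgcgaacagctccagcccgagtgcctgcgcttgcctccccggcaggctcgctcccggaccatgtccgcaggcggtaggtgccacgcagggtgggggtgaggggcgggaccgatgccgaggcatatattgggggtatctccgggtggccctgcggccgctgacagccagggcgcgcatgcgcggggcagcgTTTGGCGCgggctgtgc
Uhrf1: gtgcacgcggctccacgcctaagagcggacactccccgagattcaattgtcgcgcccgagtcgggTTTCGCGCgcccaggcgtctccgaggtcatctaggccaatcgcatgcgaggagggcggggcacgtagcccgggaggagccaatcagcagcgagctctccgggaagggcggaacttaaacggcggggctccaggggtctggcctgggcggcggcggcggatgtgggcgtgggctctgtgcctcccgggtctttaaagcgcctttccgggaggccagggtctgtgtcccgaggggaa
The Dnmt1 window held 2 matches, at bases 32 and 284, with the first on the opposite strand, and the Uhrf1 window held 1, at base 66. Each window contained 33 CpG pairs, against a median of 7 over all windows. The windows of Dnmt3a, Dnmt3b and the Tet genes, none with a match, contained 17 to 57. Every motif string holds a CpG, and the share of matches among CpG-rich windows alone was not computed. A match is a string of letters, not a measured binding site.

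The bone marrow library held 10088 cells with 73740963 UMIs (median 5991 per cell) and the spleen library 6546 cells with 85937174 UMIs (median 9978), and 16 cell barcodes occurred in both. The authors' cell table sorts the cells into 8 clusters under abbreviations that are not spelled out there. It also gives reference labels, and these went against the sort gate in the spleen: 3461 of 6546 spleen cells (52.9%) were labelled as dendritic, T, thymocyte, NK, B, mast or basophil cells, against 118 bone marrow cells (1.17%). In the spleen, such cells made up 92.9% of cluster MP, 99.6% of MCP, 86.0% of LP, 83.8% of DCP, 42.8% of HSC-3, 30.0% of HSC-1, 13.4% of HSC-2 and 1.12% of MEP. In the bone marrow they made up 61.0% of MP and under 2% of every other cluster except MCP, which had 36 cells. The summed level of 12 dendritic markers was 66870 CPM in spleen MP and 744 CPM in bone marrow HSC-1. The summed level of 10 stem cell markers was 1631 CPM in bone marrow HSC-1 and 51.8 CPM in spleen MP. Results between tissues are therefore given with and without the cells of these other labels. Levels are in CPM, the UMIs of a gene over all UMIs summed in a group of cells, scaled to a total of 1000000. A 3′ count is not divided by transcript length, so each gene is compared across groups and not with another gene.

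Dnmt1 and Uhrf1, the maintenance pair, were low in the cluster richest in stem cell markers and high in the clusters richest in S phase RNA. In the bone marrow, Dnmt1 measured 72.2 CPM in HSC-1, 77.1 in MP, 92.3 in DCP, 100.2 in LP, 176 in MEP, 187 in HSC-2 and 263 in HSC-3. In the spleen it measured 18.0 in MP, 36.0 in DCP, 50.3 in MCP, 54.4 in HSC-1, 67.9 in LP, 158 in MEP, 169 in HSC-2 and 222 in HSC-3. The 3 upper places were the same in both libraries, and HSC-3 stood 3.65 times above the lowest cluster in the bone marrow (interval 3.45 to 3.86) and 12.3 times in the spleen (10.8 to 14.0). Each neighbouring pair of the bone marrow run HSC-1, MP, DCP and LP differed by no more than counting error, as did MEP and HSC-2.

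Uhrf1 had the widest range of the 7 genes in both libraries. It measured 12.0 CPM in bone marrow HSC-1, 21.0 in DCP, 31.4 in MP, 34.2 in LP, 77.0 in MEP, 103 in HSC-2 and 104 in HSC-3. Spleen values were 2.97 CPM in MP, 3.82 in MCP, 8.56 in HSC-1, 13.7 in DCP, 38.9 in LP, 79.5 in MEP, 98.2 in HSC-2 and 102 in HSC-3. The span was 8.70-fold (7.69 to 9.86) in the bone marrow and 34.4-fold (25.5 to 47.4) in the spleen, while HSC-2 and HSC-3 did not differ beyond counting error in either library. With each cell thinned to 3700 UMIs, 3.62% of bone marrow HSC-1 cells and 32.3% of HSC-3 cells had a Uhrf1 UMI (5.37% and 61.9% unthinned). The lowest share was in spleen MP, 0.714% of 1400 thinned cells (interval 0.343 to 1.31%). No cell type in these data is known to lack any of the 7 genes, so the lowest share is an upper limit for free RNA, not a measure of it.

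**Figure D1:**
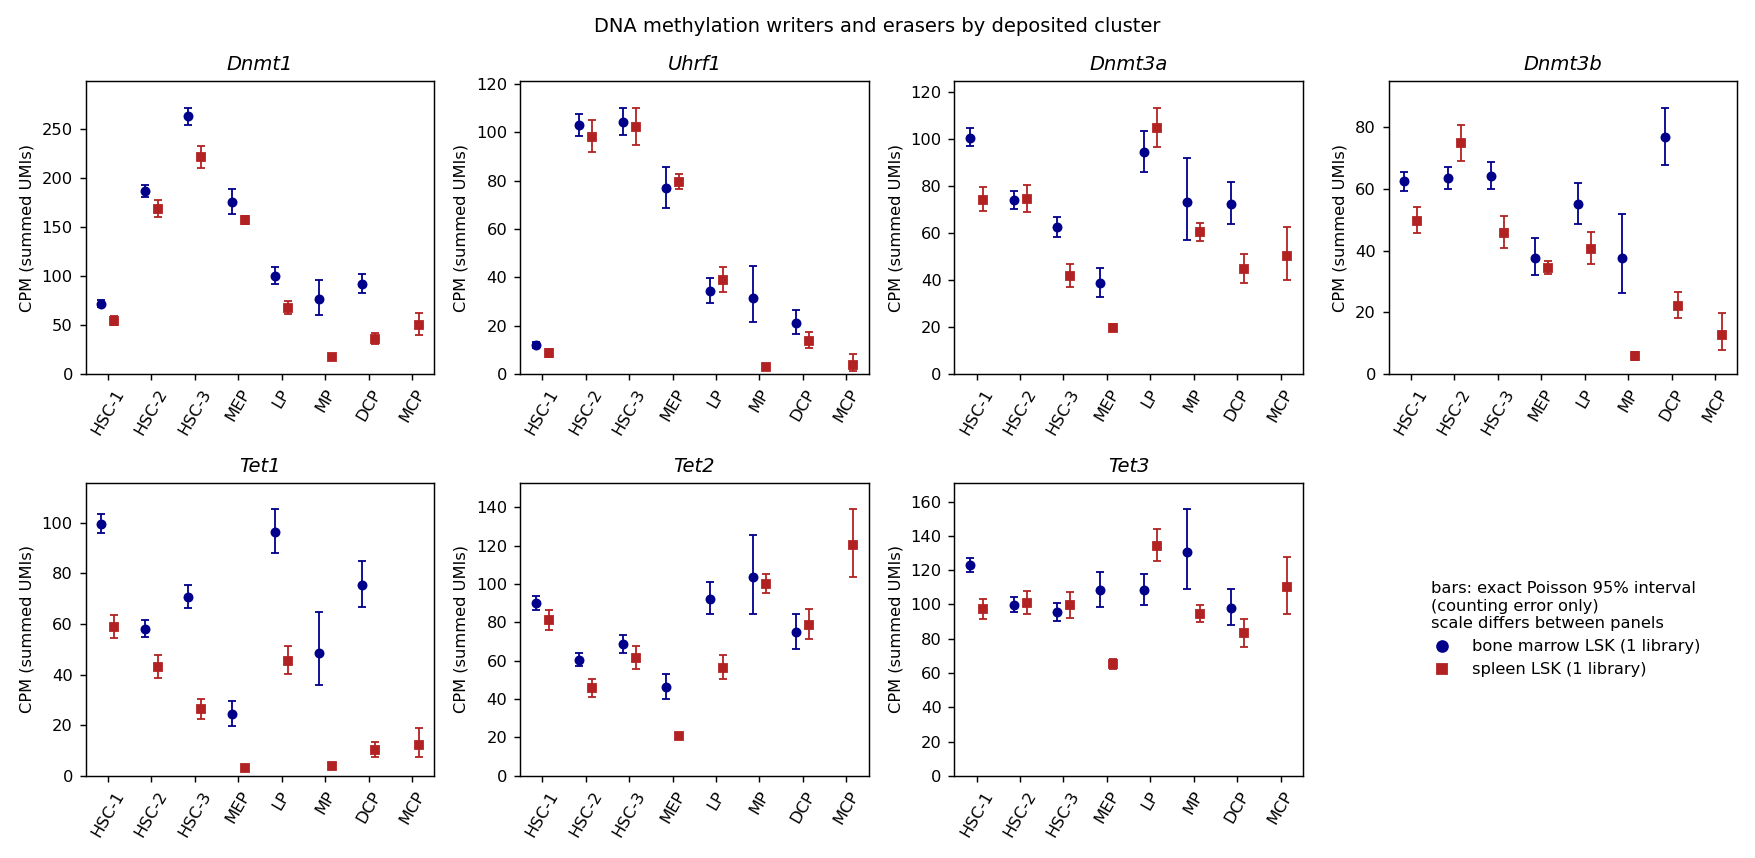
Level of each gene (CPM, y axis, a separate scale per panel) by deposited cluster (x axis), circles for bone marrow and squares for spleen, 1 library each, with exact Poisson 95% intervals; clusters under 100 cells are left out. Dnmt1 and Uhrf1 peak in HSC-2, HSC-3 and MEP, Tet1 in HSC-1 and LP, and Tet3 spans the narrowest range (1.37-fold in the bone marrow).

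Cells were then split by S phase content, the summed UMIs of 24 S phase genes that include none of the 7: up to 2 UMIs (low), 3 to 6 (middle) and above 6 (high), after thinning to equal depth. Cells of other labels were left out. Dnmt1 went with S phase content inside clusters as well as between them. In bone marrow HSC-1 it measured 56.6 CPM in the low and 127 CPM in the high group, a ratio of 2.25 (interval 1.89 to 2.68). The same ratio was 3.26 (2.46 to 4.42) in bone marrow HSC-2, 2.02 (1.29 to 3.09) in spleen HSC-1 and 2.66 (1.79 to 4.10) in spleen HSC-2. Uhrf1 was lowest where S phase content was low: in bone marrow HSC-1 it measured 5.14 CPM in the low and 41.0 CPM in the high group (ratio 7.97, 5.24 to 12.3). Bone marrow HSC-2 gave a ratio of 16.2 (7.42 to 44.4), spleen HSC-1 24.2 (7.59 to 101) and spleen HSC-2 11.0 (4.23 to 40.9), each with 4 to 6 Uhrf1 UMIs in the low group. Split by 20 genes of G2 and mitosis instead (0 UMIs against above 3), the Dnmt1 ratio in bone marrow HSC-1 was 1.54 (1.25 to 1.90) and the Uhrf1 ratio 1.57 (0.884 to 2.63). In HSC-2 the Dnmt1 ratio was 1.54 (1.33 to 1.78) in the bone marrow and 1.47 (1.08 to 1.99) in the spleen, and the Uhrf1 ratio was 2.71 (2.17 to 3.42) and 2.84 (1.91 to 4.22).

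The other 5 genes did not share this pattern in HSC-1 and HSC-2. In bone marrow HSC-1 the ratio of the high to the low S phase group was 1.01 (0.845 to 1.20) for Dnmt3a, 1.04 (0.820 to 1.30) for Dnmt3b and 0.985 (0.839 to 1.15) for Tet3. Tet1 and Tet2 were lower in the high group of bone marrow HSC-2, with ratios of 0.670 (0.508 to 0.896) and 0.655 (0.492 to 0.886). In HSC-1 these ratios were 0.873 (0.723 to 1.05) for Tet1 and 0.806 (0.657 to 0.981) for Tet2. In the spleen clusters HSC-1 and HSC-2 the intervals of all 5 included 1. Smaller bone marrow clusters differed: in DCP, with 42 cells in the high group, the ratio was 2.04 (1.05 to 3.86) for Tet1 and 1.90 (1.13 to 3.13) for Tet3. In MEP, with 52 cells in the low group, it was 0.265 (0.141 to 0.497) for Tet2 and 0.626 (0.413 to 0.968) for Tet3, and in LP 0.619 (0.419 to 0.899) for Tet1.

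**Figure D2:**
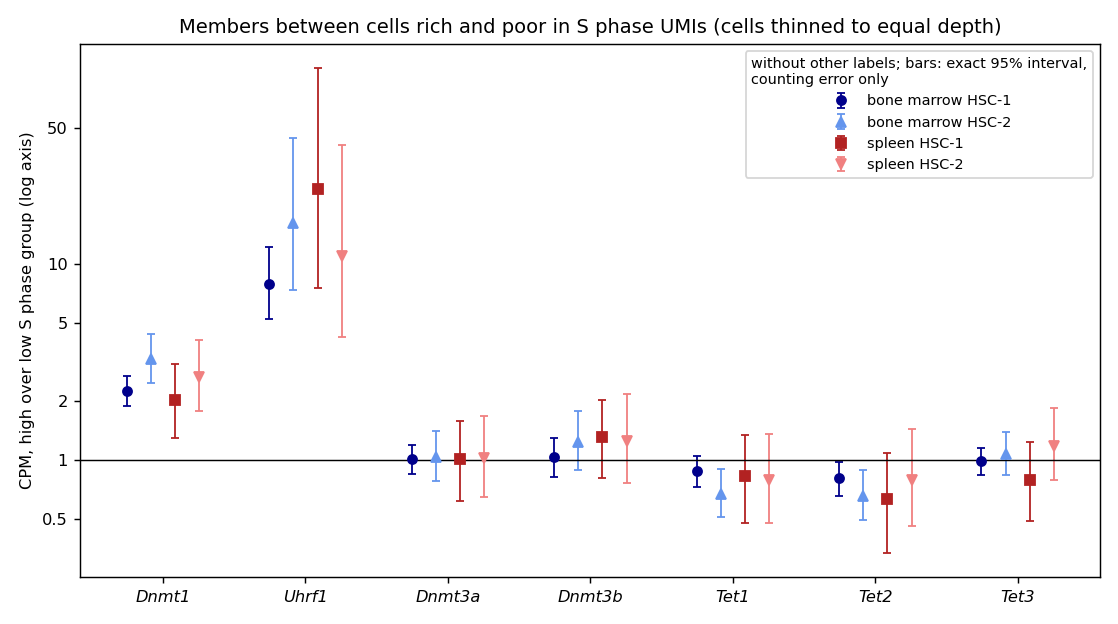
Ratio of CPM in the high over the low S phase group (y axis, log scale) for each gene (x axis) in clusters HSC-1 and HSC-2 of each library, without cells of other labels, thinned to equal depth, with exact 95% intervals. Dnmt1 (2.02 to 3.26) and Uhrf1 (7.97 to 24.2) lie above 1 in all 4 groups, and the other genes lie near or below it.

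Dnmt1 and Uhrf1 RNA also met in the same cells, here with cells of other labels included. Among thinned bone marrow HSC-2 cells, Dnmt1 had a UMI in 58.2% of the 567 cells with a Uhrf1 UMI (interval 54.0 to 62.3%) and in 41.7% of the 1519 without one (39.2 to 44.3%). In spleen HSC-2 the shares were 53.1% of 175 cells (45.5 to 60.7%) and 37.7% of 555 (33.6 to 41.8%), and in bone marrow HSC-1 34.0% of 153 (26.5 to 42.1%) and 20.8% of 4072 (19.6 to 22.1%). Spleen HSC-1, where 30.0% of cells before thinning had other labels, had 34 Uhrf1-positive cells, too few to separate 17.6% from 16.4%. Both de novo enzymes were detected almost independently of each other: in bone marrow HSC-1, Dnmt3a had a UMI in 31.8% of cells with Dnmt3b (28.7 to 35.0%) and in 30.4% of cells without it (28.8 to 31.9%). Tet2 was likewise seen in 29.2% of cells with Tet1 (26.7 to 31.8%) and in 27.4% of cells without it (25.8 to 29.0%).

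Dnmt3a and Dnmt3b, the de novo enzymes, followed different orders. Dnmt3a was lowest in MEP, the cluster with the highest erythroid marker sum, and high in HSC-1 and LP. In the bone marrow it measured 38.6 CPM in MEP, 62.5 in HSC-3, 72.4 in DCP, 73.0 in MP, 73.8 in HSC-2, 94.3 in LP and 100.5 in HSC-1. Spleen levels were 19.8 CPM in MEP, 41.6 in HSC-3, 44.5 in DCP, 50.3 in MCP, 60.4 in MP, 74.2 in HSC-1, 74.5 in HSC-2 and 104.6 in LP. The lowest 3 clusters came in the same order in both libraries, with a span of 2.61-fold (2.22 to 3.07) in the bone marrow and 5.30-fold (4.73 to 5.93) in the spleen. Neighbours in the spleen run HSC-3, DCP, MCP and MP did not differ beyond counting error. The same held in the bone marrow run DCP, MP and HSC-2.

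Dnmt3b was level over the 3 HSC clusters of the bone marrow and lowest in MP, the spleen cluster rich in dendritic markers. It measured 37.5 CPM in bone marrow MP, 37.6 in MEP, 54.9 in LP, 62.4 in HSC-1, 63.5 in HSC-2, 64.2 in HSC-3 and 76.6 in DCP. Its spleen levels were 5.75 CPM in MP, 12.7 in MCP, 22.0 in DCP, 34.4 in MEP, 40.6 in LP, 45.7 in HSC-3, 49.7 in HSC-1 and 74.6 in HSC-2. Bone marrow HSC-1, HSC-2 and HSC-3 did not differ beyond counting error, while the span over spleen clusters was 13.0-fold (10.4 to 16.4). At equal depth, 1.57% of spleen MP cells had a Dnmt3b UMI (0.987 to 2.37%), against 21.4% of spleen HSC-2 cells (18.4 to 24.5%). Dnmt3a stayed detectable in the same MP cells, in 20.0% (17.9 to 22.2%).

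The share of Dnmt3b in the summed UMIs of Dnmt3a and Dnmt3b therefore moved between clusters. With cells of other labels included, it was 38.3% in bone marrow HSC-1 (36.8 to 39.7%) and 40.1% in spleen HSC-1 (37.5 to 42.8%). Without them, HSC-1 held 511 Dnmt3b and 626 Dnmt3a UMIs in the spleen, against 1656 and 2670 in the bone marrow. The Dnmt3b share of HSC-1 was then higher in the spleen. In the spleen it ran from 8.70% in MP (7.04 to 10.6%) to 63.5% in MEP (61.2 to 65.8%), and in bone marrow MEP it was 49.4% (43.8 to 55.0%).

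The 3 Tet genes, whose enzymes start removal of the mark, each had an order of their own. Tet1 was highest in HSC-1 and LP and lowest in MEP. In the bone marrow it measured 24.3 CPM in MEP, 48.7 in MP, 58.2 in HSC-2, 70.6 in HSC-3, 75.5 in DCP, 96.3 in LP and 99.6 in HSC-1. In the spleen it measured 3.16 in MEP, 3.75 in MP, 10.2 in DCP, 12.1 in MCP, 26.3 in HSC-3, 43.0 in HSC-2, 45.6 in LP and 58.7 in HSC-1. HSC-1 and LP headed the order in both libraries, and the span was 4.10-fold (3.36 to 5.05) in the bone marrow and 18.6-fold (15.0 to 23.2) in the spleen. Spleen MEP and MP did not differ beyond counting error, nor did DCP and MCP, or HSC-2 and LP (1.06, 0.903 to 1.24). Of spleen LP cells, 86.0% had other labels, against 1.69% in the bone marrow. At equal depth 2.24% of spleen MEP cells (1.38 to 3.45%) and 1.07% of spleen MP cells (0.601 to 1.76%) had a Tet1 UMI.

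Tet2 shared the low place in MEP but was kept in the clusters with dendritic and mast cell markers. In the bone marrow it measured 46.2 CPM in MEP, 60.6 in HSC-2, 68.6 in HSC-3, 74.9 in DCP, 90.2 in HSC-1, 92.3 in LP and 103 in MP. Across spleen clusters it measured 20.7 CPM in MEP, 45.6 in HSC-2, 56.4 in LP, 61.3 in HSC-3, 78.8 in DCP, 81.1 in HSC-1, 100.1 in MP and 120.4 in MCP. Tet3 varied least: 95.5 CPM in HSC-3 to 131 in MP in the bone marrow (1.37-fold, 1.13 to 1.64), and 65.1 in MEP to 134 in LP in the spleen (2.06-fold, 1.90 to 2.24).

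As shares of the summed Tet UMIs, which are read here only for their change between groups, Tet1 held 29.4% in all bone marrow cells (28.8 to 30.0%) and 12.1% in all spleen cells (11.6 to 12.6%). It held 31.9% in bone marrow HSC-1 and 24.8% in spleen HSC-1, 13.6% in bone marrow MEP and 3.55% in spleen MEP, and 1.89% in spleen MP (1.44 to 2.44%). All these shares include cells of other labels, 30.0% of spleen HSC-1 cells. With them, the HSC-1 ratios of spleen over bone marrow were 0.589 for Tet1, 0.899 for Tet2 and 0.792 for Tet3. Without them the ratios lay closer together, at 0.761, 0.826 and 0.786, so the Tet1 share of HSC-1 then differed little between tissues. Tet3 held 73.2% in spleen MEP (71.5 to 74.8%), against 60.6% in bone marrow MEP. Tet2 held 50.5% in spleen MP (48.7 to 52.3%), against 28.8% in bone marrow HSC-1. The 3 Tet genes together held 57.1% of the summed Tet and Dnmt UMIs in HSC-1 of either library, with cells of other labels included. Without them, spleen HSC-1 held 597, 586 and 761 UMIs of Tet1, Tet2 and Tet3. It held 485, 626 and 511 UMIs of Dnmt1, Dnmt3a and Dnmt3b. That share was not computed, so the equality covers all cells only.

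**Figure D3:**
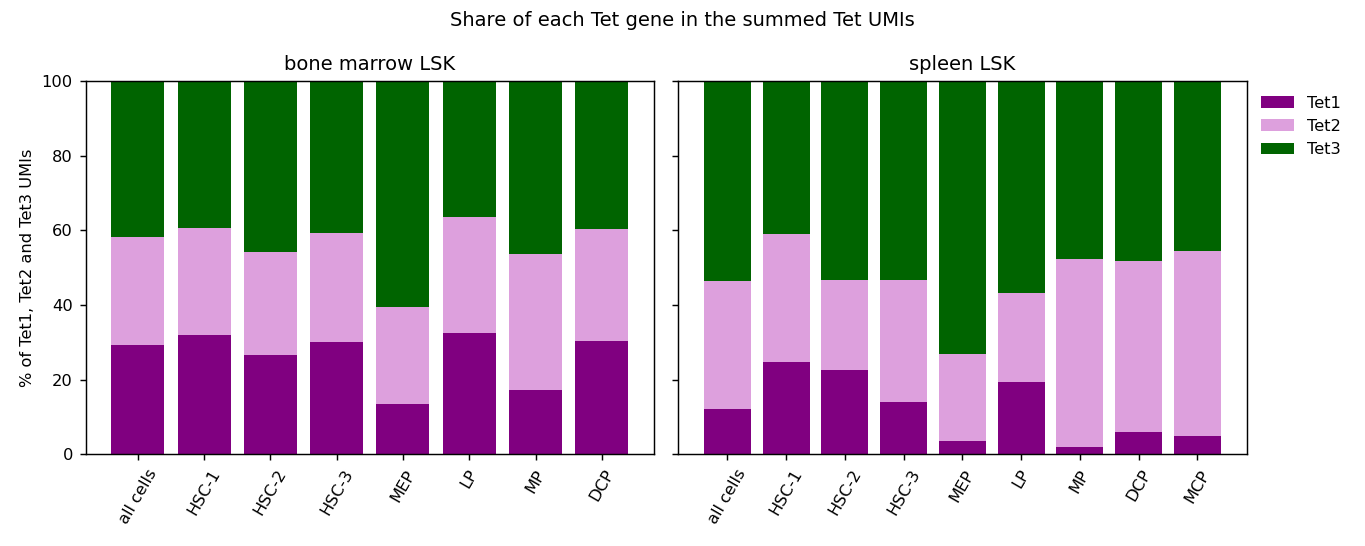
Percent of the summed Tet1, Tet2 and Tet3 UMIs (y axis) held by each gene, for all cells and each deposited cluster with at least 100 cells (x axis), bone marrow left and spleen right, 1 library each. Cells of other labels are included. The Tet1 part is 29.4% of all bone marrow cells' Tet UMIs and 12.1% of the spleen's, and is smallest in spleen MP (1.89%) and MEP (3.55%).

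Between tissues, all 7 genes had lower levels in the spleen than in the bone marrow when all cells were summed, and Tet1 had the lowest ratio. Tet1 measured 76.7 CPM in the bone marrow and 19.7 CPM in the spleen, 3.89 times lower (ratio 0.257, interval 0.243 to 0.271), and 0.937% of all genes tested had a lower ratio. Dnmt3b measured 61.3 and 35.6 CPM (ratio 0.580, 0.554 to 0.608), and Dnmt3a 80.7 and 49.1 CPM (ratio 0.609, 0.585 to 0.634). These 3 of 7 were at least 1.5-fold lower and none was 1.5-fold higher. Over the 8644 genes that averaged 10 CPM or more, 19.3% were lower by that limit and 11.3% higher. TMM scaling, which uses a trimmed mean of gene ratios, put the median gene at 0.10 on the log2 scale. The split then turned to 11.4% lower and 19.3% higher, and Tet1 alone passed (ratio 0.297). Centred on the median gene instead, 14.5% of genes were lower and 15.1% higher, and Tet1, Dnmt3b and Dnmt3a passed. With each cell thinned to equal depth, Dnmt1 (0.650) passed and Dnmt3a (0.750) did not.

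The other 4 genes lay inside the limit. Dnmt1 measured 147 and 111 CPM (ratio 0.756), Tet2 75.4 and 55.9 CPM (0.742), and Tet3 109 and 87.5 CPM (0.803). Uhrf1 measured 59.1 and 52.7 CPM (0.891), with the ratio at 1.03 under TMM scaling. Without TMM scaling, the median gene stood at -0.11 on the log2 scale, against -1.96 for Tet1, -0.79 for Dnmt3b and -0.72 for Dnmt3a.

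Leaving out the cells of other labels changed which genes stood low. In the spleen those cells measured 13.3 CPM of Tet1, 16.6 of Dnmt3b, 24.7 of Uhrf1, 50.3 of Dnmt1, 64.7 of Dnmt3a, 87.3 of Tet2 and 102 of Tet3. Without them the ratio of Dnmt3b was 0.764 (0.727 to 0.802), of Dnmt1 1.00 (0.974 to 1.03) and of Uhrf1 1.17 (1.12 to 1.23). Tet1 stayed low at 0.306 (0.287 to 0.325), and Dnmt3a (0.492, 0.468 to 0.517) and Tet2 (0.493, 0.468 to 0.519) were lower than before. Again 3 of 7 were 1.5-fold lower and 0 higher, against 24.6% and 14.7% of all genes. Spleen MEP cells, which had a median of 36084 UMIs, weigh heavily in such a sum. Without other labels they held 4942 of the 7889 spleen Dnmt1 UMIs and 100 of the 1262 Tet1 UMIs. With all spleen cells included, they held 52.4% of Dnmt1 UMIs and 5.90% of Tet1 UMIs.

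**Figure D4:**
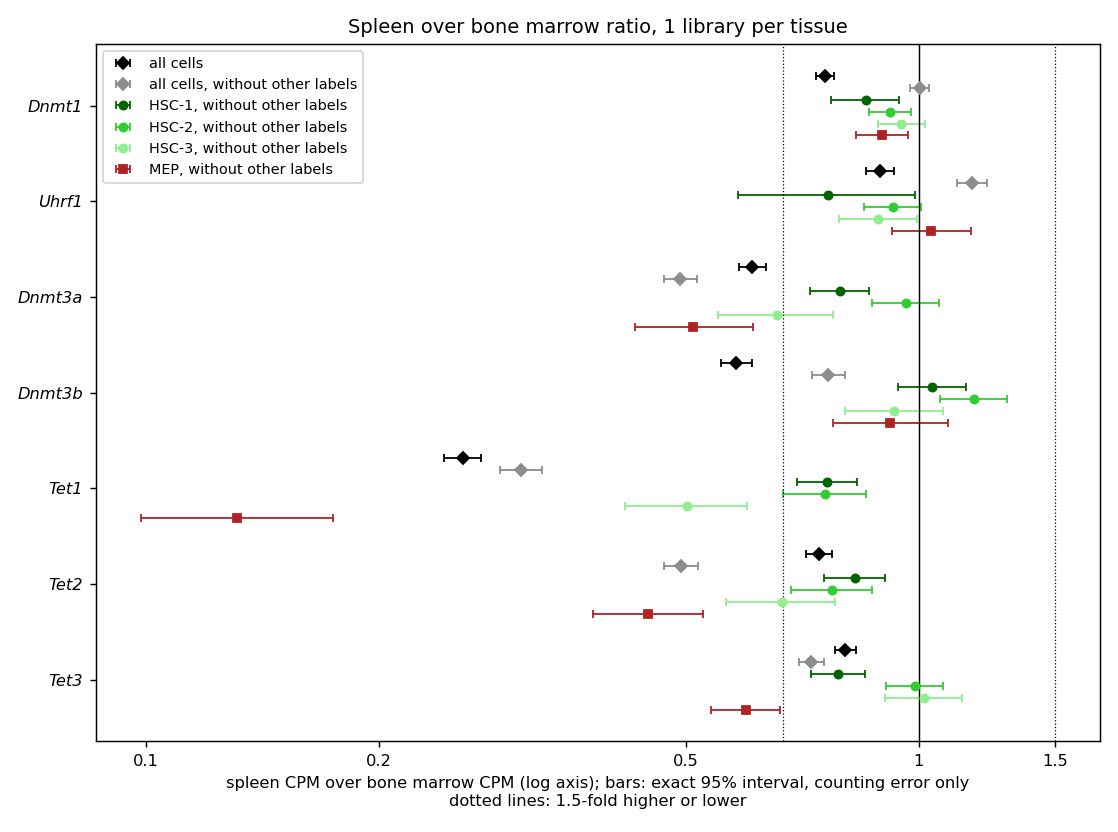
Spleen over bone marrow ratio of CPM (x axis, log scale) for each gene (y axis), for all cells, for all cells without other labels and for 4 clusters without other labels, with exact 95% intervals; dotted lines mark 1.5-fold. Tet1 lies left of 1 in every set, from 0.131 in MEP to 0.761 in HSC-1, while Dnmt3b lies near 1 in the 4 clusters (0.917 to 1.18).

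Within clusters the tissue difference depended on the gene. Without other labels, Tet1, Tet2 and Dnmt3a were at least 1.5-fold lower in HSC-3 and MEP, and inside that limit in HSC-1 and HSC-2. Tet3 passed it in MEP only, and Dnmt1, Uhrf1 and Dnmt3b in none of these clusters. Without other labels, 0 of 7 genes passed 1.5-fold in HSC-1, where 2.56% of genes were lower and 1.88% higher by that limit. Tet1 measured 99.6 CPM in 5047 bone marrow and 75.8 CPM in 1078 spleen HSC-1 cells (ratio 0.761, 0.695 to 0.832). Tet3 (0.786), Dnmt3a (0.791), Uhrf1 (0.764), Tet2 (0.826) and Dnmt1 (0.853) were also below 1 with intervals that exclude it, and Dnmt3b was not (1.04, 0.941 to 1.15). Dendritic marker RNA remained in these spleen cells, 1687 CPM against 744 CPM in the bone marrow, and 7 of 15 measured genes of G2 and mitosis were 1.5-fold lower there. The part of either in these ratios was not tested. With all cells of HSC-1 included, Tet1 was 0.589 (0.540 to 0.643) and passed the limit as 1 of 7, with 6.14% of genes lower and 5.25% higher.

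In HSC-2, 0 of 7 passed, with or without other labels, beside 2.75% lower and 1.63% higher among all genes (3.08% and 1.88% with them). Without other labels, Tet1 (0.756, 0.668 to 0.855) and Tet2 (0.772, 0.684 to 0.870) were below 1 and Dnmt3b above it (74.9 against 63.5 CPM, 1.18, 1.07 to 1.30). Dnmt1 was 0.918 (0.862 to 0.978), and Dnmt3a, Tet3 and Uhrf1 had intervals that include 1. Here 6 of 20 genes of G2 and mitosis were 1.5-fold lower in the spleen, and their part in these ratios was not tested. In HSC-3, 3 of 7 were lower without other labels and 0 higher (7.77% and 4.75% of genes): Tet1 measured 70.5 and 35.4 CPM (0.501, 0.417 to 0.599), Dnmt3a 62.4 and 40.9 CPM (0.655, 0.551 to 0.775) and Tet2 68.6 and 45.6 CPM (0.665, 0.564 to 0.780). With all HSC-3 cells, Tet1 (0.373) and Dnmt3a (0.665) were lower, beside 9.85% of genes (6.05% higher), and Tet2 was not (0.893, 0.793 to 1.00).

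Among the 4 clusters compared without other labels, MEP had the lowest ratio for each of the 3 Tet genes. Of 7 genes, 4 were lower in the spleen without other labels, beside 14.6% of all genes: Tet1 (24.3 and 3.19 CPM, 0.131, 0.0986 to 0.175), Tet2 (46.2 and 20.6 CPM, 0.446, 0.379 to 0.526), Dnmt3a (38.6 and 19.7 CPM, 0.511, 0.429 to 0.611) and Tet3 (108 and 64.7 CPM, 0.597, 0.539 to 0.662). Dnmt1 (0.896), Uhrf1 (1.04) and Dnmt3b (0.917) lay inside the limit. All MEP cells gave the same 4 (14.5% of genes lower, 8.11% higher). With each cell thinned to equal depth, so that deep cells weigh no more than others, the Tet1 ratio was 0.281. In the same spleen cells, 17 of 20 genes of G2 and mitosis and 4 of 24 S phase genes were 1.5-fold higher, beside 8.22% of all genes, and the part of cell cycle and depth in the Tet ratios was not tested.

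The authors' second set of labels divides the MEP cells into Ery-1, Ery-2 and Ery-3, and the makeup differed: Ery-3 took 69.7% of 881 spleen and 19.3% of 357 bone marrow MEP cells without other labels. Tet1 was lower in Ery-2 and Ery-3 than in Ery-1 in both libraries. In the bone marrow it measured 39.5 CPM in Ery-1, 11.9 in Ery-2 and 16.7 in Ery-3, the last from 69 cells. In the spleen it measured 19.4, 4.60 and 1.86 CPM. Spleen stood below bone marrow under each label, with ratios of 0.490 (0.272 to 0.873), 0.385 (0.190 to 0.761) and 0.111 (0.0628 to 0.206).

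Tet2 followed the same course, with 85.6, 36.3 and 31.5 CPM in bone marrow Ery-1, Ery-2 and Ery-3 and 40.4, 24.7 and 18.7 CPM in the spleen. Its ratios were 0.472 (0.318 to 0.696), 0.680 (0.490 to 0.946) and 0.593 (0.415 to 0.877). Dnmt3a was below 1 beyond counting error in Ery-3 (35.4 and 17.4 CPM, 0.492, 0.350 to 0.712), while Ery-1 (0.794, 0.490 to 1.30) and Ery-2 (0.956, 0.679 to 1.36) included 1. Dnmt3b had intervals that include 1 under all 3 labels, with ratios of 1.15, 1.03 and 1.27. Uhrf1 was below 1 beyond counting error in Ery-3 (106 and 82.0 CPM, 0.772, 0.636 to 0.945) and Dnmt1 in Ery-2 (203 and 175 CPM, 0.862, 0.758 to 0.981), while the other labels gave intervals that include 1 for both. Tet3 measured 142, 104 and 72.8 CPM in the bone marrow and 119, 77.8 and 59.6 CPM in the spleen, with a ratio below 1 beyond counting error in Ery-2 (0.746, 0.619 to 0.900).

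**Figure D5:**
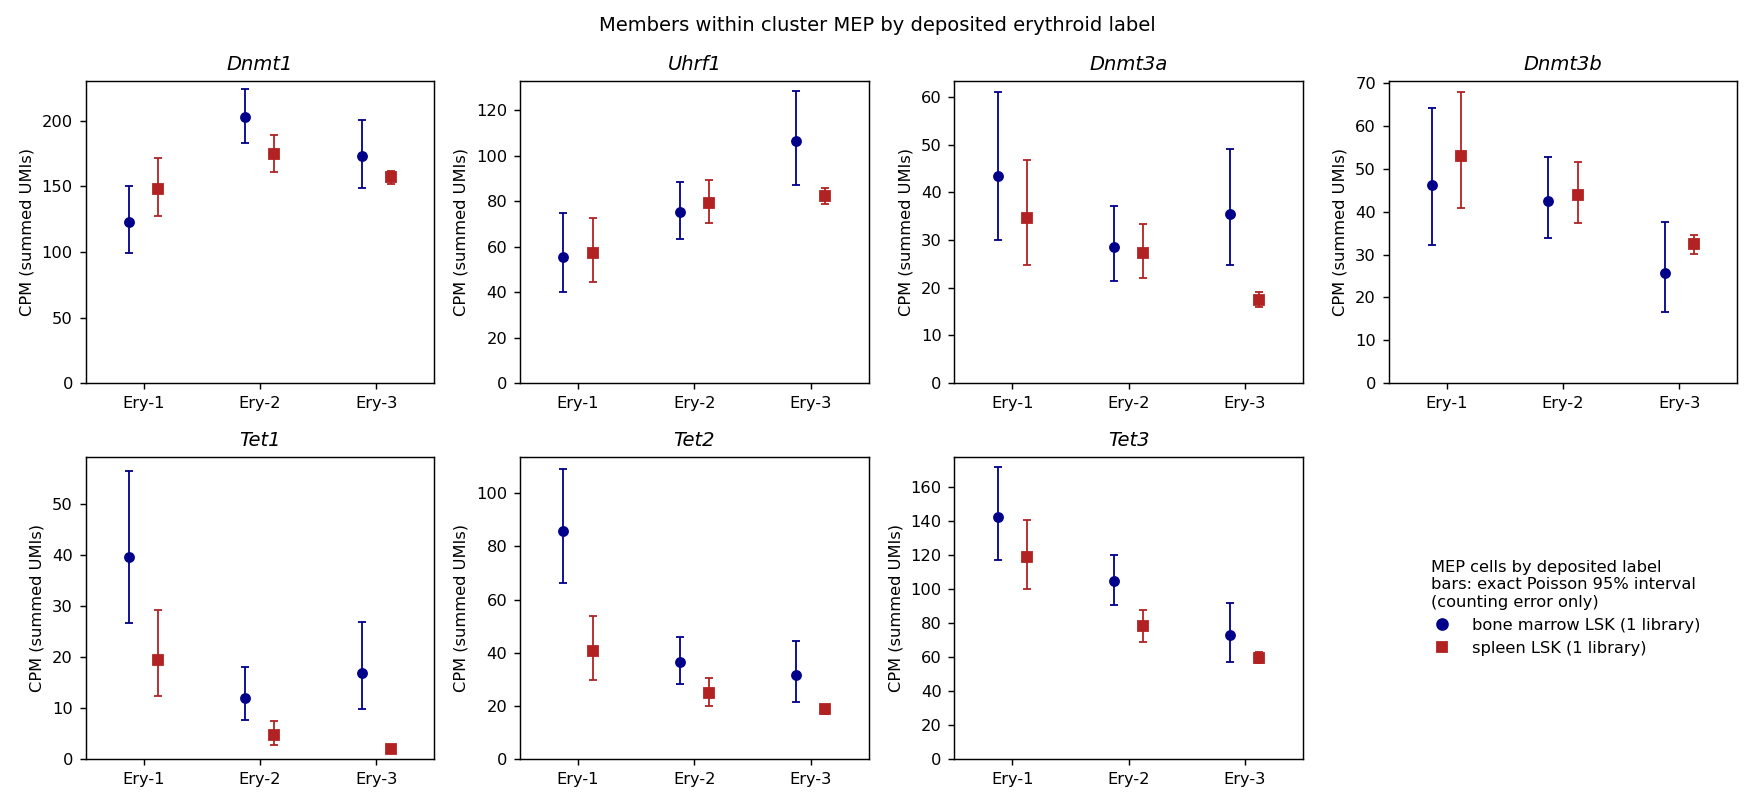
Level of each gene (CPM, y axis from 0, a separate scale per panel) in cluster MEP by the authors' labels Ery-1, Ery-2 and Ery-3 (x axis), circles for bone marrow and squares for spleen, 1 library each, without cells of other labels, with exact Poisson 95% intervals. Tet1 is at 39.5, 11.9 and 16.7 CPM in the bone marrow and at 19.4, 4.60 and 1.86 CPM in the spleen. Dnmt3b overlaps between the libraries under each label.

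The clusters with mostly other labels in the spleen compare different cells. Among all their cells, LP had 2 of 7 genes lower (11.3% of genes, with 9.40% higher): Tet1 (0.473) and Tet2 (0.611). In MP, where the bone marrow had 118 cells, 4 of 7 were lower (30.6% of genes, with 8.53% higher), Tet1 at 0.0770, Uhrf1 at 0.0946, Dnmt3b at 0.153 and Dnmt1 at 0.234, while Tet2 was 0.968 (0.792 to 1.19). DCP had 5 of 7 lower (33.4% of genes, with 14.0% higher), all but Tet2 and Tet3. None of the 7 was 1.5-fold higher in the spleen in any of the 7 clusters compared.

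The authors' reference labels gave another grouping of the cells. Under the 4 labels of the first set with at least 100 cells in both libraries, the Tet1 ratio was 0.780 (0.719 to 0.845) in multipotent progenitors named for Ctla2a, 0.688 (0.576 to 0.820) in megakaryocyte progenitors, 0.479 (0.421 to 0.543) in the fetal-liver stem and progenitor label and 0.226 (0.135 to 0.379) in erythrocyte progenitors named for Car1. The Tet2 ratio under the same labels was 0.865, 0.679, 0.578 and 0.478. Dnmt3b lay between 0.973 and 1.04 under all 4. Uhrf1 was lower in the multipotent progenitors alone (49.8 and 29.8 CPM, 0.599, 0.530 to 0.674). The second set, whose names partly repeat those of the clusters but hold other cells, gave Tet1 ratios of 0.681 (0.635 to 0.731) under its label HSC-1, 0.469 (0.367 to 0.598) under HSC-2 and 0.582 (0.471 to 0.714) under HSC-3. Uhrf1 was 0.899 (0.825 to 0.978) under HSC-1 and above 1 under HSC-2 (45.6 and 68.2 CPM, with a ratio between 1.21 and 1.86) and HSC-3 (88.1 and 125 CPM, 1.42, 1.24 to 1.61). In the 1820 spleen cells labelled dendritic and Cst3-high, Tet1 measured 3.95, Dnmt3b 6.36 and Uhrf1 8.09 CPM, while Tet2 measured 96.3 and Tet3 90.6 CPM. The 668 spleen cells labelled as gamma-delta T cells had 106 CPM of Dnmt3a and 68.1 of Uhrf1.

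Partners of the 7 enzymes were read from lists chosen by function, over all cells and the same limits, against 11.3% of genes higher and 19.3% lower. Of 11 maintenance partners, 1 was lower and none higher: Cdca7l, a relative of the chromatin remodelling cofactor Cdca7, measured 89.3 and 57.4 CPM (ratio 0.643). Uhrf2, the relative of Uhrf1, had a ratio of 0.672, and the replication ligase Lig1 and Dmap1, which binds Dnmt1, had 1.04 each. Of 8 measured partners and chromatin guides of de novo methylation, 1 was lower, Nsd2 (176 and 92.7 CPM, 0.526), which places the H3K36 methylation that Dnmt3 enzymes read. Setd2, another H3K36 methylase, had 0.753, the Polycomb methylase Ezh2 1.09 and the corepressor Trim28 0.926. List medians were -0.13 and -0.27 on the log2 scale, beside -0.11 for all genes.

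Of 10 listed readers of methylated CpG and their relatives, not all of which bind the mark, 4 were lower and 1 higher (median -0.57). Zbtb4 (29.4 and 14.3 CPM, 0.487) and Zbtb38 (114 and 59.6 CPM, 0.523), zinc finger proteins that bind methylated DNA, were lowest. Mbd2, a methyl-CpG binding subunit of the NuRD complex, was highest (98.4 and 191 CPM, 1.94), and Mbd3, its relative, had 1.12. Without other labels, 7 of these 10 listed genes were lower and 1 higher over all cells (24.6% and 14.7% of all genes). Within clusters 1 of 10 was lower in HSC-1 (2.56% of genes), and 2 of 9 were lower and 1 higher in MEP (14.6% and 8.22%).

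Of 10 measured genes for removal of oxidised cytosine and base excision repair, 2 were lower and none higher (median 0.08). These were Gadd45b, a stress gene linked to demethylation (16.9 and 6.49 CPM, 0.384), and the glycosylase Neil3 (48.9 and 22.3 CPM, 0.456). Apex1, the abasic site nuclease, had 1.41 and Gadd45a 1.20. Without other labels 2 of 10 were higher and 2 lower over all cells (14.7% and 24.6% of all genes). Within clusters 1 of 11 was higher and 1 lower in HSC-1 (1.88% and 2.56%) and in HSC-2 (1.63% and 2.75%). In HSC-3, 3 of 10 were higher and 0 lower (4.75% and 7.77%), and in MEP 0 of 9 higher and 1 lower (8.22% and 14.6%). Of 6 measured Tet cofactors and partners, 3 were lower and 1 higher (median -0.52). Slc23a2, a vitamin C transporter, measured 21.8 and 7.54 CPM (0.346), and Cxxc5, a CXXC zinc finger protein that can bind Tet2, 132 and 59.7 CPM (0.453). Idh3a, a subunit of the mitochondrial enzyme that makes 2-oxoglutarate, measured 44.4 and 72.6 CPM (1.64). Without other labels 2 of these 6 genes were higher and 3 lower over all cells.

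Of 8 measured genes of methyl donor metabolism, 2 were higher and 1 lower (median 0.35): the folate enzyme Mthfd1 (30.1 and 64.5 CPM, 2.15) and the folate carrier Slc19a1 (17.4 and 30.0 CPM, 1.72) were higher, and methionine synthase Mtr (56.8 and 34.7 CPM, 0.611) lower. Shmt1 had 0.826. Without other labels 7 of 10 measured genes were higher over all cells (14.7% of all genes). Within clusters this held for 0 of 8 in HSC-1 (1.88% of genes) and HSC-2 (1.63%), 0 of 9 in HSC-3 (4.75%) and 1 of 10 in MEP (8.22%), with list medians of -0.05 in HSC-1 and -0.06 in HSC-2. Of the 24 S phase genes, Rrm2, a subunit of ribonucleotide reductase, was higher over all cells (25.1 and 46.5 CPM, 1.85) and none was lower: Dut had 1.45, Rfc2 0.715 and Dtl 0.684. Without other labels 6 of 24 were higher and 0 lower over all cells (14.7% and 24.6% of all genes).

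Genes with the most similar patterns were sought over the 15 sums of library and cluster with at least 100 cells, by Pearson r of log2(CPM + 1) among 8498 genes. These r values describe 15 sums from 2 libraries that share cells, depth and erythroid or dendritic content, and carry no test. Dnmt1 was most like Rpa2 (0.984), Exo1 (0.983) and Dtl (0.981), genes of DNA replication and repair. Uhrf1 was most like Chaf1a (0.982), a histone chaperone subunit, the fork protein Timeless (0.980) and the primase Prim1 (0.979). With the summed S phase list, r was 0.981 for Dnmt1, 0.926 for Uhrf1, 0.659 for Dnmt3b, 0.249 for Tet1, -0.17 for Tet3, -0.28 for Dnmt3a and -0.66 for Tet2. Rpa2, Dtl and Prim1 are in that list.

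The other genes had neighbours outside replication. Dnmt3a was most like Mxd4 (0.951), Rfx7 (0.944) and Rbm5 (0.938), the first a Max dimerisation repressor. Dnmt3b was most like Bhlhb9 (0.973), Mtf2 (0.971), a Polycomb subunit, and the protease Adam10 (0.967). Tet1 was most like Dlg4 (0.983), Gprc5b (0.978) and Eya1 (0.978). Tet2 was most like Inpp4a (0.970), Gdap10 (0.962) and Pip5k1c (0.961), and Tet3 reached no r above that of Madd (0.882), Ulk2 (0.869) and Midn (0.863). Between the 7 genes, r was 0.920 for Dnmt1 and Uhrf1, 0.788 for Dnmt3b and Tet1, 0.760 for Dnmt3a and Tet1, 0.758 for Dnmt3a and Tet3, and -0.67 for Uhrf1 and Tet2.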

How the data were processed

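Per the labels, LSK cells from each tissue gave 1 Chromium 3′ library. The deposited tables hold raw UMI counts per gene and cell. Alignment to mm10 and counting by Cell Ranger are what the authors state in the series design; the submitters' processing notes name mm9 and Seurat 3.1.5, which conflicts, and strand, cell filters and doublet treatment are not given in the sources used here. All deposited cells were kept, and a variant left out the top 5% by UMIs, where doublets would lie. The deposited cell table gave cluster and reference labels (other columns unused), and the integrated matrix was not used. Gene symbols matched 30934 of 31053 identifiers.

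Counts were summed by library and cluster and scaled to CPM; clusters and labels needed 100 cells (25 for a cell cycle group or a label within MEP), and genes compared a mean of 10 CPM. Intervals (exact Poisson, the exact ratio of 2 Poisson counts, Clopper-Pearson) are at 95%. A count of 0 was set to 3 counts. For shares, each cell was thinned to 3700 UMIs, which left out 1007 bone marrow and 672 spleen cells. Work was done in Python 3.11.15 (numpy 2.4.6, scipy 1.17.1, pandas 2.3.3), with TMM factors from edgeR 4.0.16. The code was tested on simulated data. Named genes are the 7 members, the 2 highest and 2 lowest of each list (1 is not reported here), and the 3 most similar genes. The members and lists were chosen with earlier results of these data known.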

Additional observations from a re-analysis of the deposited data

How the results depend on the processing

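No paired analysis was possible because each tissue has 1 library and no test was run. None of the 7 genes was 1.5-fold higher in the spleen under any setting, beside 1.40% to 19.3% of all genes, by setting. Of the 7, 3 were lower over all cells (Dnmt3a, Dnmt3b and Tet1), beside 19.3% of all genes. The same 3 were lower after centring on the median gene (14.5% of genes) and with a pseudocount of 1 CPM (18.3%). Without a filter on low values they were again the same 3 (33.0%). With each cell weighing alike, and at equal depth, the 3 were Dnmt1, Dnmt3b and Tet1, and without cells of other labels Dnmt3a, Tet1 and Tet2. Without the top 5% of cells by UMIs 2 were lower, Dnmt3b and Tet1 (16.9% of genes). The count was 1 under TMM scaling (11.4% of genes) and 1 with clusters weighted alike (6.29%), Tet1 in both, with ratios of 0.297 and 0.491. A setting chosen after seeing the data weighted MEP and the 3 HSC clusters alike without other labels. There the count was 0 (2.14% of genes), Tet1 had a ratio of 0.705 and Dnmt3b turned to 1.05. Within clusters, 18 of 49 gene and cluster pairs were lower, 16 at equal depth (of 47) and 16 after centring. The share of all genes lower ran by cluster from 3.08% (HSC-2) to 33.4% (DCP). MP and DCP, with 30.6% and 33.4% of genes lower, gave 4 and 5 of the 18. Without other labels 7 of 28 were lower, beside 2.56% (HSC-1) to 14.6% (MEP) of all genes. Fewer clusters then had 100 cells in both libraries (4, not 7). The Tet1 ratio was 0.257 over all cells and below 1 under every setting here. Depth limits the rare cells most: spleen MP had 46 Uhrf1 and 58 Tet1 UMIs.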
